A study of Mus musculus with 14 samples.

Results

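The 10 genes described here encode 3 families of scaffold proteins of the excitatory postsynaptic density: Shank1, Shank2 and Shank3; Dlg1, Dlg2, Dlg3 and Dlg4; and Dlgap1, Dlgap2 and Dlgap3. They were taken by name, and all 10 were found among the 24100 genes of the deposited count table. Levels were measured in mouse cerebellum at postnatal day 21, in Astn2 wild-type (WT) littermates and Astn2 knockout (KO) mice. All mice carried the bacTRAP transgene Tg(Pcp2-L10a-EGFP), in which the Pcp2 promoter drives an EGFP-tagged ribosomal protein L10a in Purkinje cells. Translating ribosome affinity purification (TRAP) recovers RNA on the tagged ribosomes with antibodies to GFP, and the input, taken from the homogenate before purification, stands for whole cerebellum. There were 4 input WT libraries (1 female, 3 male), 3 input KO (2 female, 1 male), 3 TRAP WT (1 female, 2 male) and 4 TRAP KO (2 female, 2 male). The labels do not say that each library came from its own mouse, so p-values measure only the spread between these libraries. The Astn2 allele is described only as a knockout.

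In an excitatory synapse these proteins form layers beneath the receptors. The Dlg proteins, also called the PSD-95 family, hold receptors and adhesion molecules at the membrane through PDZ domains. The Dlgap proteins, also called GKAP or SAPAP, bind the Dlg proteins on one side and the PDZ domain of the Shank proteins on the other. Shank proteins in turn bind Homer, which links to metabotropic glutamate receptors and IP3 receptors, and they bind cortactin and the actin skeleton. In the cerebellum, Shank1 and Shank2 transcripts are known from Purkinje cells and Shank3 from granule cells, and PSD-93, the product of Dlg2, is a known scaffold of Purkinje cells. PSD-95, the product of Dlg4, is known there from the terminals of basket cells.

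Library totals ranged from 18799609 to 54229183 counts. Levels are given as CPM, the count per 1000000 counts of the library after scaling with TMM factors, which are edgeR's trimmed mean of M values. On that scale a floor of 3 counts corresponds to 0.0438 to 0.205 CPM, for counting error only. Astn2 was at 88.8 to 104 CPM in input WT and 117 to 146 CPM in TRAP WT, and at 0.729 to 0.968 CPM in input KO and 1.06 to 2.11 CPM in TRAP KO, which matched the labels. The Purkinje markers Pcp2, Calb1, Car8 and Itpr1 were higher in TRAP whatever the genotype. Pcp2 was at 432 ± 35.1 CPM (SD, n = 4) in input WT and 405 ± 24.6 CPM (SD, n = 3) in input KO, and at 13740 ± 4271 CPM (SD, n = 3) in TRAP WT and 9254 ± 723 CPM (SD, n = 4) in TRAP KO. The TRAP ranges of Pcp2 did not overlap between genotypes, which held for 4.49% of all genes. They were 10800 to 18640 CPM in WT, replicate 3 being the highest, and 8174 to 9700 CPM in KO. Those of Calb1, Car8 and Itpr1 overlapped. The library TRAP WT replicate 3 stood apart. Its log2 values correlated with the mean of the other TRAP WT libraries at 0.974 across genes, against 0.985 to 0.997 for every other TRAP library with the rest of its group. Values without it are given where it moves a result most.

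The members of each family are paralogs, so the sequence they share was measured first. Over all GENCODE M21 transcripts (mm10, the build named in the submitters' processing notes), runs of 31 bases found in more than 1 of the 10 genes made up at most 0.0278% of the distinct runs of any gene, the highest share being that of Shank2. The longest exact stretch of coding sequence that any 2 members of a family had in common was 26 bases. Examples of that length, 1 from each family, are printed 5′ to 3′ on the sense strand, all lower case because the whole run is shared, to show coding stretches that cannot tell paralogs apart. Over whole transcripts, Dlg1 and Dlg2 had 1 run of 31 bases in common, longer than the coding runs printed here.
Shank1 and Shank3: ctgctggacaaggggctggaccccaa
Dlg2 and Dlg4: ggcctgggcttcaacattgtgggcgg
Dlgap1 and Dlgap3: agctacatcaaagccatgggggatga
By contrast, Shank2 and Shank3 had 18 bases in common at most and Dlg1 and Dlg3 had 17. Gene-level counts do not resolve the alternative transcripts, of which GENCODE lists 6 for Shank2, 17 for Dlg2, 20 for Dlgap1 and 22 for Dlg4. Shank1, Shank3 and Dlgap1 have annotated exons that coincide with exons of a gene on the opposite strand. Shank1 has 339 bases with 1700008O03Rik, Shank3 has 271 bases with Gm15609, and Dlgap1 has 92 bases with AC079441.1. On the same strand, exons of Dlg2 share 75 bases with Gm45159 and 150 bases with Gm45131. Whether counting used strand is not given in the sources used here, and a contribution of these transcripts to the counts was not tested.

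On the RefSeq annotation of GRCm38.p6, which is the same assembly as mm10, all 10 genes lie on the plus strand. Shank1 (Entrez 243961) spans bases 44308916 to 44360094 of chromosome 7, and Shank2 (Entrez 210274) spans 143978077 to 144426043 of the same chromosome. Shank3 (Entrez 58234) spans 89493013 to 89560261 of chromosome 15. Dlg1 (Entrez 13383) lies at 31663443 to 31873356 of chromosome 16, and Dlg2 (Entrez 23859), the longest of the 10 genes, at 90476188 to 92449246 of chromosome 7. Dlg3 (Entrez 53310) lies at 100767411 to 100818410 of the X chromosome and Dlg4 (Entrez 13385) at 70017203 to 70045535 of chromosome 11. Dlgap1 (Entrez 224997) was placed at 69969073 to 70821413 of chromosome 17, Dlgap2 (Entrez 244310) at 14095776 to 14853426 of chromosome 8 and Dlgap3 (Entrez 242667) at 127168305 to 127237022 of chromosome 4. Their longest transcripts run from 4.21 kb (Dlgap3) to 9.83 kb (Shank1).

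To compare genes with each other, CPM was divided by the length of the longest transcript. The order of genes and the family shares rest on that length, and other lengths were not tested. Ranges over libraries do not include this uncertainty. In input WT, Dlg4 was the highest of the 10, at 70.9 ± 5.67 CPM per kb (SD, n = 4). Shank3, Dlgap1 and Dlgap3 followed at 46.0, 45.9 and 45.3 CPM per kb, and their ranges over libraries overlapped. Then came Dlg2 at 30.96, Shank1 at 27.3 and Shank2 at 22.5 CPM per kb, each range apart from its neighbours. Dlg1 (16.9) and Dlg3 (16.4) overlapped, and Dlgap2 was far below all others, at 0.157 ± 0.0459 CPM per kb (SD, n = 4). Input KO had the same set of genes at the top and bottom, from Dlg4 at 73.3 ± 2.72 CPM per kb (SD, n = 3) to Dlgap2 at 0.193 ± 0.0602 CPM per kb (SD, n = 3). There Shank1 (25.2) and Shank2 (23.4) overlapped as well.

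The order in TRAP was different. In TRAP KO, Shank1 (78.9 ± 8.59 CPM per kb, SD, n = 4), Shank2 (73.8 ± 18.1) and Dlg4 (72.2 ± 3.81) stood at the top with overlapping ranges. Dlgap1 (50.5) and Dlg2 (47.2) came next and overlapped, as did Shank3 (29.4) and Dlgap3 (24.0) below them, followed by Dlg3 (15.7), Dlg1 (4.30) and Dlgap2 (0.101). In TRAP WT the means ran from Shank2 (77.8 ± 47.8 CPM per kb, SD, n = 3) through Dlg4 (68.0), Shank1 (61.4), Dlg2 (50.7) and Dlgap1 (41.1) to Shank3 (37.02), each overlapping the next. Without replicate 3 the mean of Shank2 was 51.6 CPM per kb, below Dlg4 (71.6) and Shank1 (68.9), and Dlg2 (37.1) stood below Dlgap1 (46.7), so the first place of Shank2 rests on that library. With all 3 libraries, Dlgap3 (23.6), Dlg3 (14.3), Dlg1 (3.34) and Dlgap2 (0.104) followed, each apart from its neighbours.

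**Figure D1:**
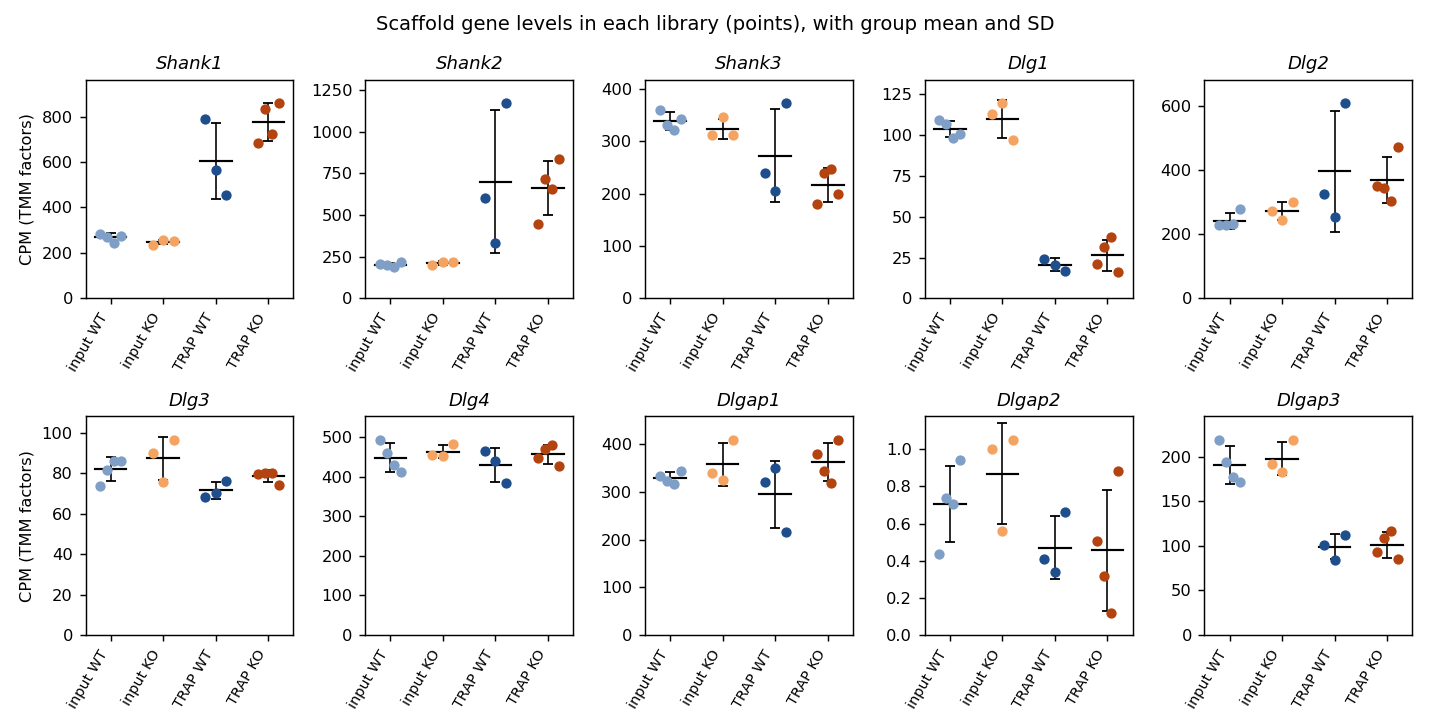
Level of each of the 10 scaffold genes in each library, as CPM with TMM factors on a linear axis from 0; points are libraries, horizontal lines group means and bars SD. Shank1 and Shank2 are higher in every TRAP library than in every input library, Dlg1 and Dlgap3 are lower in every TRAP library, and the TRAP WT point at 1170 CPM for Shank2 is replicate 3.

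TRAP was compared with input to ask which scaffold transcripts are enriched on Purkinje cell ribosomes. In WT, 3 of the 10 genes were higher in TRAP (Shank1, Shank2, Dlg2) and 2 were lower (Dlg1, Dlgap3). In KO, 2 were higher (Shank1, Shank2) and 3 were lower (Dlg1, Dlgap3, Shank3). Across all 16042 genes tested, 75.5% were called in WT (37.0% up and 38.5% down) and 75.9% in KO (36.3% up and 39.6% down). The members' count was 5 of 10 in each genotype. With library totals in place of TMM factors the members' count was 8 in WT and 9 in KO. Of all 16042 genes, 12938 in WT and 12802 in KO were called with these totals. No difference from the background is read from the members' count. At an unadjusted p under 0.05 the counts were 5 in WT and, with Dlgap2, 6 in KO, beside 77.3% and 77.4% of all genes. The TRAP and input ranges did not overlap for 4 of the 10 in WT, where this held for 72.6% of all genes, and for 6 of the 10 in KO, where it held for 78.0%. The median log2 fold change of the 10 genes was -0.17 in WT and -0.088 in KO, beside -0.088 and -0.11 over all genes. A gene was called when edgeR's quasi-likelihood test gave a p under 0.05 after Benjamini-Hochberg adjustment over all genes tested. In bulk libraries, more cells of a type and more RNA per cell cannot be told apart.

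Within the Shank family, Shank1 and Shank2 were enriched and Shank3 was not. Shank1, the family member with the longest transcript here, was measured in input WT at 285, 271, 243 and 275 CPM (replicates 1 to 4) and in TRAP WT at 787, 567 and 457 CPM (replicates 1 to 3). In KO it was at 236, 255 and 253 CPM in input and at 684, 833, 724 and 859 CPM in TRAP. No TRAP library fell within the input range in either genotype. The log2 fold change was 1.15 ± 0.15 (SE) in WT (edgeR, adjusted p = 9.20e-06), and 1.67 ± 0.16 (SE) in KO (edgeR, adjusted p = 4.37e-07). With library totals in place of TMM factors, the WT value was 0.33 (edgeR, adjusted p = 0.0693).

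Shank2, a scaffold of Purkinje cell synapses, varied more within TRAP than Shank1 did. Its level was at 204, 201, 187 and 217 CPM in input WT and at 599, 329 and 1170 CPM in TRAP WT, the last being replicate 3. In KO it was at 197, 217 and 215 CPM in input and at 448, 713, 655 and 838 CPM in TRAP. All TRAP libraries were above all input libraries. The log2 fold change was 1.80 ± 0.30 (SE) in WT (edgeR, adjusted p = 1.04e-04), and 1.62 ± 0.32 (SE) in KO (edgeR, adjusted p = 4.24e-04). Without TRAP WT replicate 3 the WT value was 1.16 (edgeR, adjusted p = 3.77e-04).

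Shank3, the Shank gene known from granule cells, was at 360, 332, 321 and 343 CPM in input WT and at 240, 205 and 373 CPM in TRAP WT. TRAP WT replicate 3 was thus above all input libraries and the other two TRAP WT libraries were below them. KO libraries had 313, 347 and 311 CPM in input and 180, 240, 248 and 199 CPM in TRAP, with every TRAP library below every input library. The log2 fold change was -0.31 ± 0.18 (SE) in WT, which did not pass (edgeR, adjusted p = 0.125), and -0.59 ± 0.18 (SE) in KO, which did (adjusted p = 0.00847). Without TRAP WT replicate 3 the WT value was -0.65 and passed (edgeR, adjusted p = 5.68e-04). Offsets for transcript length turned both values, to 0.31 in WT and 0.081 in KO, neither past the threshold, whereas in WT a mean count of at least 50 gave -0.52 (edgeR, adjusted p = 0.0176) and library totals gave -1.13 (edgeR, adjusted p = 9.28e-05), both past it.

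The Dlg family spread over a wider range. Dlg1, which encodes SAP97, was at 109, 107, 98.1 and 100.8 CPM in input WT and at 24.4, 20.5 and 16.6 CPM in TRAP WT. Its KO levels were 113, 120 and 96.8 CPM in input and 20.8, 31.3, 37.3 and 16.3 CPM in TRAP. All TRAP libraries were far below all input libraries. The log2 fold change was -2.36 ± 0.24 (SE) in WT (edgeR, adjusted p = 7.69e-07) and -2.03 ± 0.22 (SE) in KO (adjusted p = 1.81e-06), the lowest of the 10 genes in each genotype.

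Dlg2, which encodes PSD-93, was at 229, 229, 231 and 278 CPM in input WT and at 327, 253 and 610 CPM in TRAP WT, the TRAP library at 253 CPM lying within the input range. KO libraries had 272, 245 and 301 CPM in input and 352, 345, 305 and 473 CPM in TRAP, where the groups did not overlap. The log2 fold change was 0.72 ± 0.23 (SE) in WT (edgeR, adjusted p = 0.0109), and 0.40 ± 0.23 (SE) in KO, which did not pass (adjusted p = 0.131). Without TRAP WT replicate 3 the calls changed places, at 0.25 in WT (edgeR, adjusted p = 0.174) and 0.40 in KO (adjusted p = 0.0205). With library totals both values were below 0 (-0.099 in WT, -0.34 in KO), with a mean count of at least 50 the WT value was 0.51 (edgeR, adjusted p = 0.0562), and with length offsets the KO value was 1.11 (edgeR, adjusted p = 1.18e-04).

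Dlg3, which encodes SAP102, and Dlg4 did not pass in either genotype. Dlg3 ranged from 73.7 to 86.3 CPM in input WT, 68.6 to 76.2 CPM in TRAP WT, 75.7 to 96.7 CPM in input KO and 74.2 to 80.3 CPM in TRAP KO. Dlg4 ranged from 412 to 494 CPM in input WT, 384 to 466 CPM in TRAP WT, 453 to 484 CPM in input KO and 427 to 482 CPM in TRAP KO. The ranges of TRAP and input overlapped for both genes in both genotypes. The 95% interval of the log2 fold change of Dlg4 was -0.28 to 0.15 in WT and -0.23 to 0.21 in KO, and that of Dlg3 was -0.40 to 0.026 in WT and -0.38 to 0.043 in KO. With length offsets Dlg4 was higher in TRAP, at 0.46 in WT (edgeR, adjusted p = 0.00326) and 0.52 in KO (adjusted p = 0.00168). With library totals both genes were called lower in both genotypes (Dlg4 -0.89 and -0.74, Dlg3 -1.01 and -0.90). A mean count of at least 50 also called Dlg3 lower in both genotypes. Dlg3 was then at -0.40 in WT (edgeR, adjusted p = 0.00153) and -0.35 in KO (adjusted p = 0.00315). The same setting called Dlg4 lower in WT, at -0.28 (edgeR, adjusted p = 0.0190), and not in KO. With a library left out, the lowest adjusted p of Dlg3 in KO was 0.0471 in edgeR's test. No direction is therefore given for Dlg3 and Dlg4.

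Of the Dlgap genes, Dlgap3 fell in TRAP and Dlgap1 did not pass. Dlgap3, which encodes SAPAP3, was at 219, 194, 177 and 172 CPM in input WT and at 102, 84.5 and 112 CPM in TRAP WT. In KO it was at 192, 183 and 219 CPM in input and at 92.9, 109, 117 and 85.3 CPM in TRAP. No TRAP library reached the input range. The log2 fold change was -0.94 ± 0.14 (SE) in WT (edgeR, adjusted p = 4.58e-05) and -0.97 ± 0.14 (SE) in KO (adjusted p = 2.88e-05).

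Dlgap1, which encodes GKAP, ranged from 317 to 343 CPM in input WT and 325 to 408 CPM in input KO. In TRAP WT it was at 320, 349 and 215 CPM, replicate 3 being the lowest, and in TRAP KO it ranged from 318 to 409 CPM. The 95% interval of its log2 fold change was -0.49 to 0.18 in WT and -0.32 to 0.35 in KO. With length offsets Dlgap1 was higher, at 0.49 in WT (edgeR, adjusted p = 0.0209) and 0.65 in KO (adjusted p = 0.00477). With library totals Dlgap1 was lower, at -0.98 and -0.72. A mean count of at least 50 called Dlgap1 lower in WT, at -0.37 (edgeR, adjusted p = 0.0417), and not in KO. Dlgap2 was near the detection limit, with 15 to 72 counts in each input library and 2 to 20 in each TRAP library, the lowest being under the floor of 3 counts, and in WT it did not pass (log2 fold change -0.50 ± 0.47 SE). For KO it was -0.96 ± 0.43 (SE), which did not pass in edgeR (adjusted p = 0.0571) and passed in 7 of 21 alternatives, among them the DESeq2 Wald test (-0.99, adjusted p = 0.0353). With library totals it passed in both genotypes, at -1.32 in WT (edgeR, adjusted p = 0.0185) and -1.70 in KO (adjusted p = 0.00228).

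**Figure D2:**
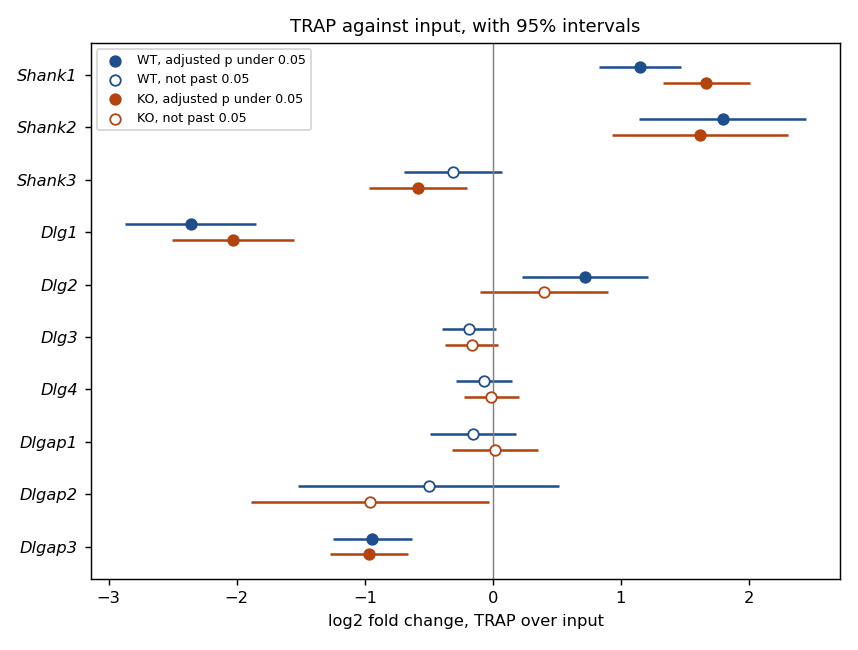
Log2 fold change of each scaffold gene in TRAP over input, in WT and KO, with 95% intervals from edgeR's fit; filled points passed an adjusted p of 0.05. Shank1 and Shank2 lie to the right of 0 in both genotypes and Dlg1 and Dlgap3 to the left, while Dlg3, Dlg4 and Dlgap1 have intervals that include 0.

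These directions are relative to the scaling. Library totals in place of TMM factors shifted the median of all genes on the log2 scale by -0.82 for WT and -0.73 for KO. The members' calls became 1 higher and 7 lower in WT and 2 higher and 7 lower in KO. With these totals, 3138 of all 16042 genes were called higher and 9800 lower in WT, and 3133 and 9669 in KO. Keeping only genes with a mean count of at least 50 shifted the median by -0.21 and -0.19. The members' calls became 2 higher and 6 lower in WT and 2 higher and 4 lower in KO. Over the 13013 genes kept, 4778 were higher and 5531 lower in WT, and 4714 and 5593 in KO. With length offsets the members' calls were 5 higher and 2 lower in each genotype. Of the 15117 genes tested there, 5715 were higher and 5586 lower in WT, and 5579 and 5613 in KO. Shank2 stayed higher, and Dlg1 and Dlgap3 stayed lower, past the threshold in both genotypes in every alternative, and Shank1 in every one but library totals in WT.

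Ratios of genes within a library do not depend on how libraries are scaled to each other. The ratio of Shank1 to Shank3, per kb, was 0.567 to 0.612 in input WT and 0.552 to 0.609 in input KO. In TRAP it was 2.46, 2.07 and 0.917 in WT and 2.19 to 3.23 in KO, so all 7 TRAP libraries were above all 7 input libraries, TRAP WT replicate 3 being the nearest. The ratio of Shank2 to Shank3 was 0.464 to 0.519 in input WT, 0.514 to 0.567 in input KO, 1.32 to 2.57 in TRAP WT and 2.05 to 3.45 in TRAP KO. Shank3 therefore took 46.0% to 48.9% of the summed Shank level per kb in input libraries and 13.0% to 22.8% in TRAP libraries. The split of the rest between Shank1 and Shank2 varied: Shank1 took 47.2% in TRAP WT replicate 2 and 20.4% in TRAP WT replicate 3.

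In the Dlg family Dlg4 had a similar share in both fractions and Dlg1 a lower one in TRAP. Dlg4 held 48.4% to 55.8% of the summed Dlg level per kb in input WT, 50.3% to 52.0% in input KO, 38.7% to 58.4% in TRAP WT and 46.4% to 55.5% in TRAP KO, with overlapping ranges. The share of Dlg1 was 10.5% to 14.2% in input libraries and 1.72% to 4.42% in TRAP libraries. The ratio of Dlg2 to Dlg1 per kb was 1.61 to 2.45 over the input libraries and 6.43 to 28.9 over the TRAP libraries, again with no overlap. In the Dlgap family the ratio of Dlgap1 to Dlgap3 was 0.894 to 1.17 in input and 1.13 to 2.81 in TRAP, where TRAP WT replicate 3 (1.13) lay within the input range.

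**Figure D3:**
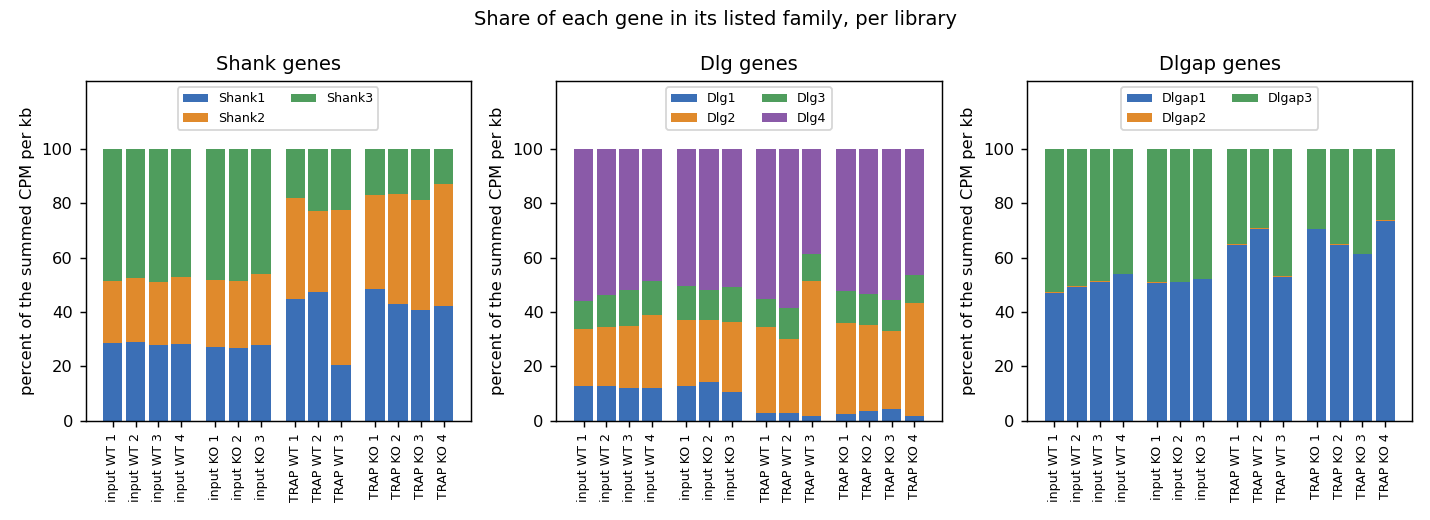
Share of each gene in the summed CPM per kb of the listed members of its family, in percent, for each of the 14 libraries (bars, grouped by fraction and genotype). Shank3 takes 46.0% to 48.9% in input and 13.0% to 22.8% in TRAP, Dlg1 becomes a thin band in TRAP, and TRAP WT replicate 3 has the lowest Shank1 share of all libraries.

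RNA of other cells was still present in TRAP. All 4 granule cell markers (Gabra6, Neurod1, Cbln3, Etv1) were lower in TRAP in both genotypes and none was at 0. Their summed level was 2531 to 2650 CPM in input WT, 2500 to 2703 CPM in input KO, 336 to 549 CPM in TRAP WT and 322 to 588 CPM in TRAP KO, so that each TRAP library kept 12.4% to 22.7% of the mean input level of its genotype. The same share was 12.6% to 24.2% for the 3 markers of molecular layer interneurons, 13.0% to 35.5% for the 5 oligodendrocyte markers, 21.7% to 41.9% for the 5 astroglia markers and 17.8% to 41.4% for the 4 microglia markers. Endothelial markers kept 40.9% to 48.1% in TRAP WT and 32.8% to 68.4% in TRAP KO. For choroid plexus markers the same share was 65.6% to 117% and 21.6% to 26.9%, which cannot be read as RNA kept. Their summed level in input KO had a median of 11.6 CPM and a highest value of 1153 CPM, so the highest library set the mean. The markers also moved in opposite directions. In KO the mean of Clic6 was 16.6 CPM in input and 91.7 CPM in TRAP, and that of Ttr was 361 and 1.61 CPM. Dlg1 kept 14.8% to 33.99%, Dlgap3 43.0% to 59.1% and Shank3 55.5% to 110%. The part of these cells in the TRAP level of the 3 genes was not tested. All of these shares use TMM factors and depend on that scaling. Library totals in their place shifted TRAP against input by a median of -0.82 in WT and -0.73 in KO (log2, all genes).

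The effect of Astn2 loss was then measured within each fraction. None of the 10 genes passed in TRAP (0 of 10, at an unadjusted p under 0.05 also 0) or in input (0 of 10, and 1, Dlg2, at an unadjusted p under 0.05). Over all genes 0.00707% of 14145 passed in TRAP, all lower in KO, and 0.0188% of 15997 in input (0.00625% higher, 0.0125% lower), and 1.5% and 13.7% had an unadjusted p under 0.05. The DESeq2 Wald test also called none of the 10 in either fraction. KO and WT ranges overlapped for all 10 genes in both fractions, where 4.49% of all genes in TRAP and 10.3% in input did not overlap.

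In TRAP the highest log2 fold changes were 0.36 ± 0.30 (SE) for Dlg1 and 0.36 ± 0.20 (SE) for Shank1, and the lowest was -0.29 ± 0.23 (SE) for Shank3. Their 95% intervals were -0.33 to 1.04, -0.11 to 0.82 and -0.83 to 0.24. For Shank2 the estimate was -0.014 with an interval of -0.90 to 0.87, and without TRAP WT replicate 3 it was 0.53. Without that library Shank3 was at -0.031 and Shank1 at 0.21, with Dlg1 at 0.24. Differences within those 95% intervals were not excluded in TRAP. The adjusted p in edgeR was 0.9998 for all 10.

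Input gave narrower intervals, with a median half-width of 0.17 on the log2 scale against 0.51 in TRAP. Dlg2 was at 0.22 ± 0.096 (SE) in KO against WT (edgeR, unadjusted p = 0.0473, adjusted p = 0.358). Dlg3 was at 0.17, Dlgap1 at 0.15, Shank3 at -0.12 and Shank1 at -0.14, and edgeR's adjusted p ran from 0.392 to 0.441. The estimates nearest 0 were those of Dlg1 (-0.012, interval -0.17 to 0.15), Dlg4 (0.012, interval -0.15 to 0.17), Dlgap3 (0.028, interval -0.19 to 0.25) and Shank2 (0.045, interval -0.13 to 0.22). Dlgap2 was at 0.55, with an interval of -0.13 to 1.22 and 15 to 72 counts per library.

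**Figure D4:**
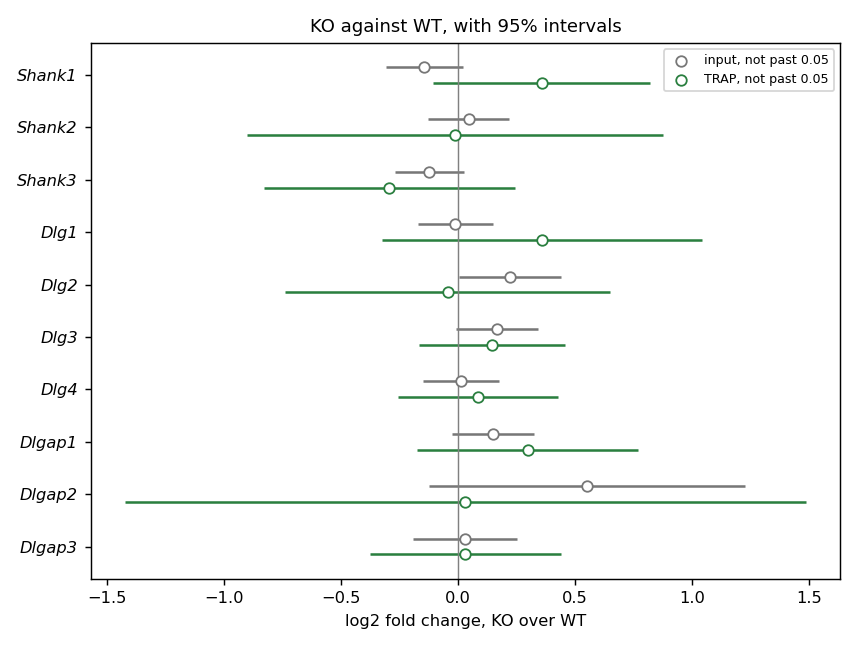
Log2 fold change of each scaffold gene in KO over WT, in input and in TRAP, with 95% intervals from edgeR's fit; open points did not pass an adjusted p of 0.05. No gene passed in either fraction, and the TRAP intervals, with a median half-width of 0.51, are wider than those of input at 0.17.

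Whether the TRAP enrichment itself differed between genotypes was tested by the interaction. It called 0 of the 10 genes, and 0.0% of all 16042 genes. At an unadjusted p under 0.05 it gave 1 of the 10, Shank1, beside 2.68% of all genes. The DESeq2 Wald test, at an adjusted p under 0.05, also called 0 of the 10. For Shank1 the interaction was 0.52 ± 0.21 (SE) on the log2 scale, the TRAP enrichment being larger in KO (edgeR, unadjusted p = 0.0297, adjusted p = 0.999). Without TRAP WT replicate 3, the TRAP WT library with the lowest Shank1, it was 0.35. Shank2 was at -0.18 ± 0.43 (SE) and Shank3 at -0.27 ± 0.25 (SE), and without that library they were at 0.48 and 0.063.

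The partners of these scaffolds were followed with a list of 34 genes. In WT, 15 were higher in TRAP and 16 lower, and in KO 14 were higher and 16 lower, beside 75.5% and 75.9% of all genes called. With library totals the split was 13 higher and 20 lower in WT and 11 higher and 20 lower in KO. Cttn and Magi2 changed sign there. With the same totals, 3138 of all 16042 genes were higher and 9800 lower in WT, and 3133 and 9669 in KO. Without TRAP WT replicate 3 the split of the partners was 14 and 18 in WT and 14 and 19 in KO. Of 16255 genes tested then, 5849 were higher and 6501 lower in WT, and 6146 and 6905 in KO. The median log2 fold change of the 34 genes was -0.34 in WT and -0.41 in KO. None passed between genotypes in either fraction; in input 7 had an unadjusted p under 0.05, beside 13.7% of all genes, and in TRAP 0 did, beside 1.5%. The DESeq2 Wald test called 3 of them in input (Homer2, Nos1, Sptan1), beside 1.84% of all genes, and 0 in TRAP, beside 0.0212%.

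The Homer genes, whose products bind Shank, divided into 1 higher and 2 lower in TRAP. Homer3, the Homer of Purkinje cells, was at 459 to 496 CPM in input WT and 5636 to 8526 CPM in TRAP WT, and had the highest log2 fold change of the list, 3.80 ± 0.15 (SE) in WT and 3.58 ± 0.16 (SE) in KO. Homer1 was lower in TRAP, with -0.56 ± 0.15 (SE) in WT and -0.55 ± 0.14 (SE) in KO, and Homer2 was lower with -1.63 ± 0.16 (SE) and -1.94 ± 0.15 (SE). The largest of the edgeR adjusted p of these 3 genes was 0.00370. Of the 10 Shank-binding genes, 4 were higher and 6 lower in each genotype, where 37.0% of all genes were higher and 38.5% lower in WT and 36.3% and 39.6% in KO.

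Dlgap4, a further gene of the family, was higher in TRAP, where Dlgap1 did not pass and Dlgap3 fell. It was at 164 to 183 CPM in input WT, 574 to 670 CPM in TRAP WT, 149 to 181 CPM in input KO and 603 to 698 CPM in TRAP KO. Its log2 fold change was 1.82 ± 0.092 (SE) in WT and 1.95 ± 0.098 (SE) in KO, and the larger edgeR adjusted p was 1.62e-09. Per kb it stood at 125.6 ± 10.95 CPM in TRAP WT (SD, n = 3) and 133 ± 8.09 CPM in TRAP KO (SD, n = 4), and every TRAP library was above all TRAP libraries of Dlgap1, Dlgap2 and Dlgap3. The light chains Dynll1 and Dynll2, motor subunits that bind Dlgap proteins, were also higher in both genotypes.

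Among the other partners, Kalrn, a guanine nucleotide exchange factor of dendritic spines, rose with a log2 fold change of 2.64 ± 0.24 (SE) in WT and 2.70 ± 0.26 (SE) in KO. Grip2, a PDZ scaffold that binds AMPA receptors, rose by 1.88 ± 0.22 (SE) in WT and by 1.53 ± 0.22 (SE) in KO. Without TRAP WT replicate 3 the WT values were 2.33 for Kalrn and 1.41 for Grip2. The lowest WT values were those of Lin7a, with -3.45 ± 0.17 (SE) in WT and -3.53 ± 0.16 (SE) in KO, Magi1 with -1.86 ± 0.14 (SE) and -1.69 ± 0.13 (SE), and Lin7c with -1.66 ± 0.18 (SE) and -1.70 ± 0.17 (SE), and Homer2 stood second from the bottom in KO. In the Lin7 family, whose products bind PDZ partners together with Cask, Lin7b was higher, at 1.79 ± 0.12 (SE) in WT and 1.66 ± 0.13 (SE) in KO. Of the 9 Dlg-binding genes 3 were higher (Kalrn, Begain, Frmpd4) and 5 lower in each genotype, beside the same shares of all genes (37.0% and 38.5% in WT, 36.3% and 39.6% in KO).

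**Figure D5:**
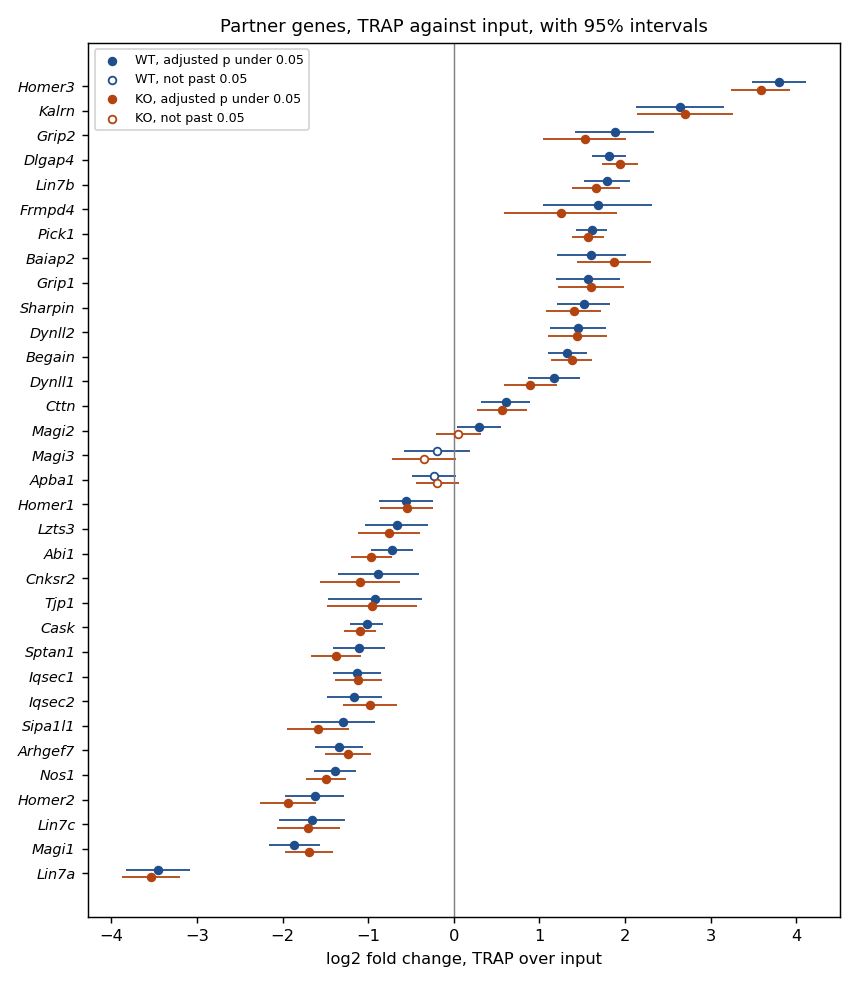
Log2 fold change in TRAP over input of the partner genes reported here, in WT and KO, ordered by the WT value, with 95% intervals from edgeR's fit; filled points passed an adjusted p of 0.05. Homer3 (3.80 in WT) is at the top and Lin7a (-3.45) at the bottom.

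For each Shank gene the 3 genes with the most similar pattern were found by Pearson correlation of log2(CPM + 1) over the 14 libraries, among 16032 genes. They included Opa3 (0.989), Trex1 (0.988) and Rexo4 (0.988) for Shank1, Fbh1 (0.995) and Frmpd4 (0.990) for Shank2, and Mmp24 (0.980), Slc39a14 (0.973) and Wscd2 (0.972) for Shank3. The split between TRAP and input enters each of these values. Frmpd4 is also a listed partner, a PDZ protein that binds PSD-95. It had a log2 fold change in TRAP of 1.68 ± 0.29 (SE) in WT and 1.25 ± 0.31 (SE) in KO, and ranged from 111 to 376 CPM in TRAP WT, replicate 3 being the highest. Without that library its WT value was 1.06, and its correlation with Shank2 was 0.989 over 13 libraries.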

How the data were processed

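The deposited table holds counts per gene, whole numbers with Entrez gene numbers as row names, 1 column per library; the totals of the deposited columns differ, and no normalization by the authors is named in the sources used here. Salmon 0.8.2 and mm10 are named in the submitters' processing notes; Salmon estimates counts, so the deposited values may be rounded estimates. The annotation and strand setting are not given in the sources used here. All 14 columns matched a label.

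Symbols came from RefSeq (GRCm38.p6), which matched 24045 of 24100 genes; lengths are those of the longest GENCODE M21 transcript. No pair of libraries within a group agreed within sampling noise (chi-square per degree of freedom at least 8.63 over 18 pairs). No pair was therefore treated as repeat sequencing of the same library, and each library counted as 1 replicate. This check cannot show whether libraries shared a mouse.

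The test was edgeR's quasi-likelihood test (edgeR 4.0.16, R 4.3.3), two-sided, with TMM factors, filterByExpr, sex as covariate and Benjamini-Hochberg adjustment over all genes tested. Genotype was fitted within each fraction (7 libraries), fraction and interaction over 14 libraries with group means. SE is the absolute log2 fold change over the square root of F; 95% intervals use the fit's degrees of freedom. CPM uses TMM factors over all 14 libraries.

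Tried as alternatives were scaling by library totals or DESeq2 size factors, loess length offsets (span 0.3), a Wald test in DESeq2 1.42.0, dropping the count filter or asking for a mean count of 50, leaving sex out, a replicate block, fitting genotype on all 14 libraries, and leaving out each library; partner, per-kb and pattern values without TRAP WT replicate 3 were added after seeing the data. The fit was tested on simulated data with 200 genes changed. The 10 members and the partner and marker lists were chosen with earlier results of these data known. All members were named; of the partners, Dlgap4, the Homer genes, the 3 highest and 3 lowest per genotype and any past a genotype threshold were named by rule, and Dynll1, Dynll2, Lin7b, Begain and Frmpd4 after their values were seen. Some genes picked by these rules are not reported here.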

Additional observations from a re-analysis of the deposited data

Results flagged for a closer look

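Of 88 groups of 4 libraries examined, covering the 10 scaffold genes and the 34 partners in input WT and TRAP KO, 3 had 1 library far from the rest by Dixon's test at 95%, which marks about 1 in 20 groups by chance. Dlg2 in input WT replicate 4 was at 278 CPM against 229 to 231 CPM in the other 3, a gap of 0.941 of the range on the log2 scale. Dlg3 in TRAP KO replicate 4 was at 74.2 CPM against 79.8 to 80.3 CPM, a gap of 0.907 of the range. Sharpin, which encodes a Shank-binding protein, was at 25.2 CPM in input WT replicate 2 against 27.5 to 27.9 CPM, a gap of 0.842 of the range.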

How the results depend on the processing

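Of the 10 genes, TRAP against input called 5 in each genotype, beside 75.5% of all genes in WT and 75.9% in KO. The count was 8 in WT and 9 in KO with library totals, beside 12938 and 12802 of all 16042 genes. It was 8 in WT with a mean count of at least 50, beside 10309 of 13013 genes. When each library was left out it was 5 in WT and 5 to 7 in KO. All genes then gave 11556 to 12350 calls in WT and 11281 to 13051 in KO. No alternative called any of the 10 between genotypes or in the interaction; over all genes, input gave 3 calls, 294 with the DESeq2 Wald test, 23 without a filter and 1 to 158 with a library left out, and TRAP gave 1, with 1 to 3 over the alternatives. Of 971 single values, 878 kept direction and side of the threshold. The cause of the changes below was not tested.

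TRAP against input changed sign as follows. With length offsets: Shank3 0.31 (WT) and 0.081 (KO), Dlg3 0.12 and 0.14, Dlg4 0.46 and 0.52, Dlgap1 0.49 in WT. With library totals: Dlg2 -0.099 (WT) and -0.34 (KO), Dlgap1 -0.72 (KO). For Dlgap1 in KO, at 0.017: DESeq2 size factors -0.0058, no filter -0.0022, the DESeq2 Wald test -0.0058, a mean count of at least 50 -0.17. With genotype and replicate number as a block, 5 of the 10 genes were called in WT and 6 in KO. That block called 11593 of all 15996 genes in WT and 11442 in KO. Dlgap1 was -0.039 and Dlg4 0.010 in KO with the block. Same-numbered input and TRAP libraries correlated in their deviations at 0.292, 0.243 and 0.0981 in WT and at 0.225, 0.225 and -0.125 in KO, so not every pair was over 0.1 and the numbers were not used as pairs, though the labels leave shared mice open; the best match bore the same number for 3 of 3 WT input libraries and for 2 of 3 in the other sets. The block changed 1 call, Dlgap2 in KO (-1.40, adjusted p = 0.0252 in edgeR's test).

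Signs of KO against WT, none past the threshold, changed in TRAP for Shank2 (0.036) and Dlg2 (0.0016) with library totals and Dlgap2 (-0.045) without sex. In input they changed for Dlg1 (0.013 with all 14 libraries, 0.067 without sex, 0.061 with the replicate block), Dlg4 (-0.0012 with library totals, -0.038 with length offsets) and Shank2 (-0.053 with length offsets). The interaction of Dlgap3 was 0.063 with library totals and 0.091 with the block. With a library left out, KO against WT in TRAP ranged from -0.35 to 0.53 for Shank2, -0.29 to 0.36 for Dlg2, -0.040 to 0.56 for Dlg1, -0.098 to 0.13 for Dlgap3 and -0.19 to 0.47 for Dlgap2; in input from -0.10 to 0.11 for Dlg1, -0.099 to 0.13 for Dlg4 and -0.20 to 0.25 for Dlgap3. TRAP against input ranged from -0.053 to 0.069 for Dlg4 and -0.047 to 0.15 for Dlgap1 in KO, and from -0.36 to 0.017 for Dlgap1 in WT. The interaction ranged from -0.56 to 0.15 for Dlg2, -0.059 to 0.079 for Dlg3, -0.011 to 0.14 for Dlg4, -0.029 to 0.36 for Dlgap1, -0.13 to 0.10 for Dlgap3, -0.52 to 0.48 for Shank2 and -0.42 to 0.063 for Shank3.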
